A study of Mus musculus with 15 samples.

Results

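The unfolded protein response and the chaperones of the secretory pathway are represented here by 36 genes, chosen by symbol from the mouse genes in a table of 41591 NCBI Gene IDs. All 36 were found, and all 36 passed the filter on low counts that left 19388 genes for testing. The measurements are RNA-seq read counts of the whole epididymis of 15 mice aged 7 weeks, the duct in which sperm leaving the testis mature. Groups of 5 animals each were wild type (WT), heterozygous (HET, labelled Plag1 -/+) or knockout (KO, labelled Plag1 -/-) for Plag1, a zinc finger transcription factor, with 1 library per animal. The strain label of every animal reads Brown Swiss, and neither the allele nor the part of the gene it removes is described in the labels. The comparisons ask how transcript levels differ with the number of intact Plag1 alleles.

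Proteins bound for secretion are threaded into the endoplasmic reticulum (ER) through the Sec61 channel and folded there by chaperones and disulphide enzymes. When unfolded proteins accumulate, the sensors Ern1 (IRE1), Eif2ak3 (PERK) and Atf6 act. Ern1 splices the Xbp1 transcript into the form that encodes an active transcription factor, Eif2ak3 slows translation and thereby raises Atf4 protein, and Atf6 is cut to release a transcription factor. Their targets include chaperones, enzymes of ER-associated degradation, which returns misfolded proteins to the cytosol for destruction, and, through Atf4, amino acid synthesis and Ddit3 (CHOP). The epithelium of the epididymis secretes large amounts of protein into the duct. Splicing, translation and protein cleavage are not seen in gene counts.

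An ER stress element was found in the upstream sequence of 9 of these genes. A RefSeq table of GRCm38.p6 holds the 250 bases before and the first 50 after the start of 32 of the 36 genes. These are 33 windows, as Derl2 has a pair. No window was used for Hyou1, Manf, Atf6 or Derl1. The element was searched as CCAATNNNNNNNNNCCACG on both strands and was in 9 of the 32 (28.1%). It was in 37 of 27025 genes in the table (0.137%) and in 1 of 89 genes of the wider secretory and stress lists described below. The 36 genes were chosen as part of the response that the element is named for, so this excess is not an independent result. It was present upstream of Hspa5, Hsp90b1, Calr, Canx, Dnajc3, Pdia6, Creld2, Syvn1 and Derl3. Hsp90b1 had a pair of them. The sites are shown because they are what these 9 promoters share, while the windows of the other 23 genes lack these letters. Each is read on the strand of the element, with its fixed letters in capitals.
Hspa5: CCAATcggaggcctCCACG
Calr: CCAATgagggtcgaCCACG
Derl3: CCAATggggaagtcCCACG
Hsp90b1 (upstream site): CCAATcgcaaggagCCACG
Hsp90b1 (downstream site): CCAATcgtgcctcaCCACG
Canx: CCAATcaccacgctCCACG
Pdia6: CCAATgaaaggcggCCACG
Dnajc3: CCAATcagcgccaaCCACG
Creld2: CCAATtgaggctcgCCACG
Syvn1: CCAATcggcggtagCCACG

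The bases between the fixed ends differed from gene to gene. With the start base counted as 0, the element ended 47 bases before the start in Hspa5 and 26 before it in Syvn1, the nearest, and the farther of the Hsp90b1 sites began 212 bases before it. The shorter ER stress element II, ATTGGNCCACG, was found in Herpud1 and Dnajb11 (6.25% of the 32, 0.0444% of the table). The Herpud1 site ended 42 bases before the start, while the Dnajb11 site began 7 bases after it.
Herpud1: ATTGGgCCACG
Dnajb11: ATTGGcCCACG

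The wider core ACGTG was found in 14 of the 32 (43.8%, against 21.8% of the table). The longer TGACGTG, which contains it, was in Hspa5 alone among them (3.12% against 2.22%). Among the 89 genes of the wider lists both shares were higher than in the 32, at 49.4% and 12.4%. In Herpud1 the core overlaps the end of the ER stress element II. For the amino acid response motif only the form TGATGNAAT was searched, with its last base fixed as T. It was found for 0 of the 32 genes, against 1.08% of the table, which says only that these letters are not in their windows. Forms with another last base were not searched, and the Asns window holds TGATGAAAC. The 250 bases upstream of Hspa5, whose product BiP is the main ER chaperone, and of Dnajb9, the member that differed between genotypes, are given with all matches in capitals. They lie at chr2:34771840-34772089 (plus strand) and chr12:44210069-44210318 (minus strand) of GRCm38.p6.
Hspa5: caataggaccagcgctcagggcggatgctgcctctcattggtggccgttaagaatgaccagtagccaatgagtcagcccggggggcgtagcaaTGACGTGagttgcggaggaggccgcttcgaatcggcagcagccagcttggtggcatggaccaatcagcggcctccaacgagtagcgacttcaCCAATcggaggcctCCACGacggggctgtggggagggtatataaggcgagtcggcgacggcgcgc
Dnajb9: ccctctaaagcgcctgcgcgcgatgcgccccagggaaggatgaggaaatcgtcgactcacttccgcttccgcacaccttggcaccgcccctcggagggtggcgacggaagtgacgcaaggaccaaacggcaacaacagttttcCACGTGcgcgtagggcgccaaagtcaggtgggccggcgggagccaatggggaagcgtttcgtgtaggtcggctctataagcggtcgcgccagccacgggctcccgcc

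In Hspa5 the capitals mark TGACGTG and the ER stress element. In Dnajb9 they mark CACGTG, in which the core reads the same on both strands. Binding was not measured in these samples, so a match is a description of the letters.

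The libraries summed to 20.3 to 27.8 M counts (WT), 23.6 to 33.8 M (HET) and 25.3 to 42 M (KO). Plag1 averaged 12.7 ± 0.869 CPM (± SD) over the 5 WT animals, 10.1 ± 1.38 CPM over the 5 HET animals and 8.32 ± 0.972 CPM over the 5 KO animals (CPM, counts scaled to 1 M per library on TMM-normalized sizes), and was lower in KO than in WT by edgeR's quasi-likelihood test with Benjamini-Hochberg adjustment (log2 fold change -0.61 ± 0.10, SE; adjusted p = 0.00493). Reads from exons left intact check nothing about the allele. On the first principal component KO-738 lay at -17.8, inside the WT range of -19.9 to -11.0, while the other 4 KO libraries lay between 26.8 and 48.5. Reads of the ribosomal RNA gene Rn18s-rs5 took 1.30% of counts in HET-693 and 1.29% in KO-738, and at most 0.509% elsewhere. Markers of the labelled tissue, 13 genes of principal cells of the initial segment and caput, summed to 79101 to 92492 CPM in WT and 76429.8 to 93910.1 CPM in KO. In KO against WT 1 of the 13 was called higher and 0 lower, beside 4.40% and 1.60% of all tested genes. Their log2 fold changes ran from -0.44 to 0.59.

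In the WT epididymis the most abundant members were lumenal chaperones and disulphide enzymes, though not all of either group were abundant. Per kilobase of exon, Calr, a calcium-binding lectin chaperone, stood at 888 CPM per kb, Hsp90b1 (GRP94, the HSP90 of the ER) at 684 and Hspa5 at 593. The protein disulphide isomerases Pdia3, P4hb, Pdia6 and Pdia4 followed at 412, 401, 362 and 286, with the membrane-bound lectin chaperone Canx at 273. Below these lay a gap, with Creld2 next at 116 CPM per kb. The lumenal chaperones Manf, Sdf2l1 and Hyou1 stood at 96.1, 89.9 and 64.9, and the disulphide enzyme Ero1l at 10.4. The sensors were more than an order of magnitude lower than Hspa5, with Ern1 at 15.6, Atf6 at 14.2 and Eif2ak3 at 10.4 CPM per kb. The transcription factors Atf4, Xbp1 and Ddit3 stood at 68.2, 56.1 and 10.5. The lowest members were Chac1 at 3.35, Derl2 at 2.43 and Trib3 at 0.309 CPM per kb, Trib3 resting on 11 to 54 counts per library over all genotypes.

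**Figure D1:**
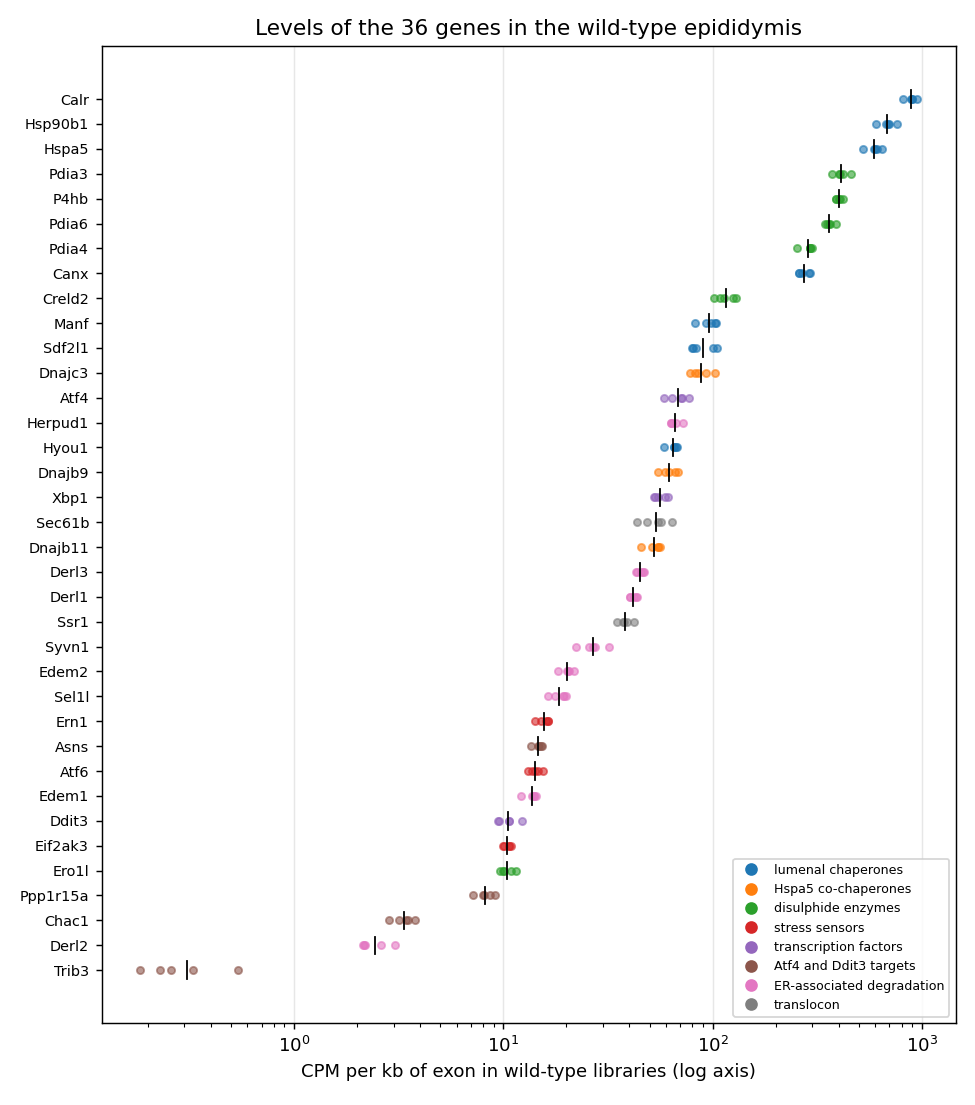
Level of each of the 36 genes in the 5 WT libraries, in CPM per kilobase of exon on a log axis. Points are libraries, vertical bars are means and colours are roles; the genes run from Calr at 888 to Trib3 at 0.309 CPM per kb.

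Along this order, the WT ranges of neighbours did not overlap between Calr and Hsp90b1, Hspa5 and Pdia3, Pdia6 and Pdia4, Canx and Creld2, and Dnajc3 and Atf4. Lower down they were also apart between Ssr1 and Syvn1, Syvn1 and Edem2, Ero1l and Ppp1r15a, Ppp1r15a and Chac1, and Derl2 and Trib3. All other neighbours overlapped. Exon lengths are unions over all annotated isoforms, so genes with long untranslated or rare exons, such as Ssr1 and Derl2, read lower per kilobase. Together Hsp90b1, Calr, Hspa5 and Pdia6 held 51.6% to 53.0% of the CPM of the 36 genes in WT. The 36 genes took 1.62% to 1.82% of all counts in WT, 1.66% to 1.81% in HET and 1.57% to 1.78% in KO. Summed over the 36 genes, WT animals averaged 17559 ± 918 CPM (SD, n = 5), HET animals 17743 ± 528 CPM and KO animals 16471 ± 834 CPM, with overlapping ranges. In WT, WT-720 had the lowest sum and WT-719 the highest.

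Between KO and WT, 1 of the 36 genes passed the test. Dnajb9, a DnaJ co-chaperone that binds Hspa5 and unfolded proteins, fell by 0.25 ± 0.066 on the log2 scale (SE; 95% interval -0.39 to -0.11; edgeR adjusted p = 0.0363), which is a change of -16.0%. The other 35 did not pass, among 19388 genes of which 6.0% were called, 4.40% higher and 1.60% lower. Most differences were small. The 95% interval lay within 0.5 of 0 on the log2 scale, a 1.41-fold change either way, for 35 of the 36, against 58.4% of all tested genes, and within 0.25, or 1.19-fold, for 21. Their median standard error was 0.065, and that of all tested genes was 0.12. The exception was Trib3, the least abundant.

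At an unadjusted p under 0.05 there were 9 of 36 (25%), close to the 23.6% of all tested genes; the 9 were Dnajb9, Ern1, Creld2, Canx, Herpud1, Hspa5, Trib3, Hyou1 and Ppp1r15a. Of these 8 were lower in KO, 22.2% of the 36 against 9.78% of all tested genes. Values below 0 were found for 30 of 36 genes, against 53.2% of all tested genes, with a median log2 fold change of -0.080 against -0.012. The genes share libraries and vary together, so this count is a description.

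**Figure D2:**
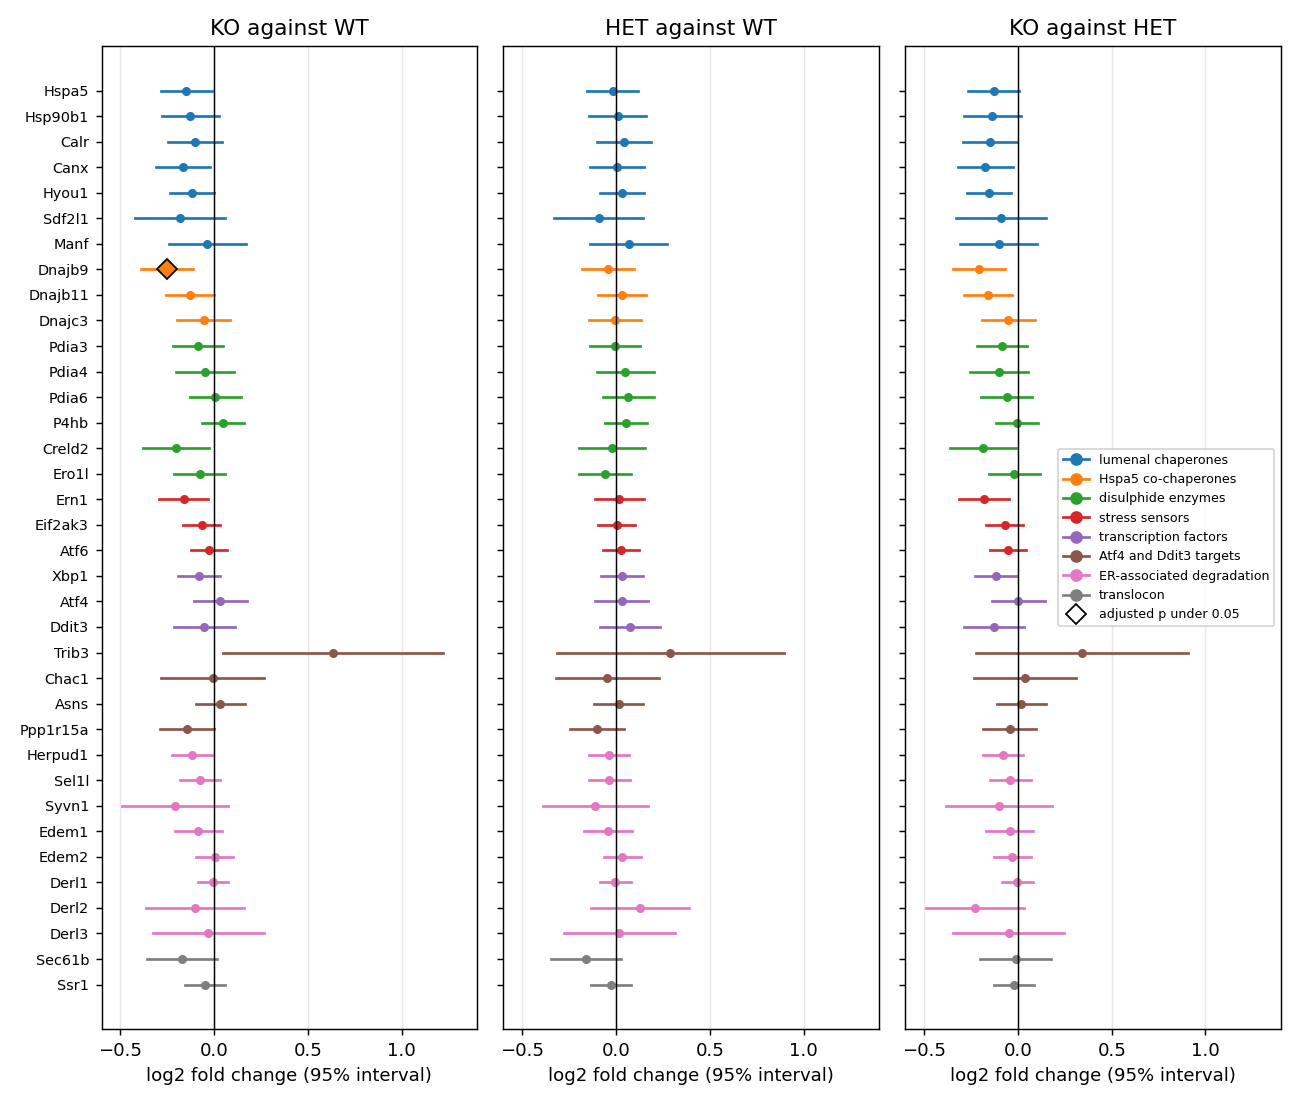
Log2 fold change of each gene in the 3 comparisons, with its 95% interval as a horizontal line, grouped by role through the colour. Only Dnajb9 in KO against WT, marked by a diamond, passed an adjusted p of 0.05; the value of Trib3, 0.63, has the widest interval.

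Dnajb9 (chromosome 12, 44205897 to 44210068, GRCm38.p6) was the clearest case library by library. Values are given here and in what follows in the order WT-709, WT-719, WT-720, WT-723 and WT-726, then HET-692, HET-693, HET-715, HET-718 and HET-735, then KO-694, KO-695, KO-696, KO-738 and KO-739. It stood at 157, 175, 140.3, 152 and 168 CPM in WT, at 137, 157, 154, 163 and 159 CPM in HET and at 135, 118, 136, 137 and 139.7 CPM in KO. All 5 KO libraries lay below all 5 WT libraries, by a narrow gap between 139.7 and 140.3 CPM, and the HET libraries spanned both. This separation in the lower direction was seen in 1 of the 36 genes (Dnajb9) and in 1.37% of all tested genes. KO against HET gave -0.21 ± 0.066 (edgeR adjusted p = 0.0982), short of the threshold.

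The call of Dnajb9 depended on the libraries used. It was not called when only KO and WT entered the fit (-0.24, edgeR adjusted p = 0.0922), with a term for animal numbers under 700 (-0.19, 0.206) or among the animals numbered 700 and above, which leave 2 KO animals (-0.19, 0.245). All WT animals carry numbers above 700, so no value could be had below it, and what the numbers stand for is not given in the labels. Leaving out WT-709, WT-719, WT-723, WT-726, KO-694, KO-695 or KO-696 also ended the call, with values from -0.27 to -0.20 and adjusted p from 0.0521 to 0.0777. Without KO-738 its value was -0.26 (adjusted p = 0.0197), in a fit that called 14.96% of all tested genes. The call was kept in 16 of 26 alternative fits. DESeq2 and limma voom with quality weights each called 1 of the 36, Dnajb9, beside 9.76% and 8.43% of all tested genes.

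Among the animals numbered 700 and above, 26 of the 36 members had values below 0 in KO against WT, with a median of -0.041, and with the number term 32, with a median of -0.081 (all tested genes -0.0066 and -0.010). Hspa5 was at -0.063 in those animals, Canx at -0.055, Hsp90b1 at -0.041, Calr at -0.024, Dnajb11 at -0.011 and Creld2 at -0.12, against -0.15, -0.17, -0.13, -0.10, -0.13 and -0.21 over all 15 libraries. With the number term Canx was at -0.087. None of these was called in either fit.

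Markers of stromal cells moved with the KO genotype. In KO against WT 4.40% of all tested genes were called higher. The test was passed by 7 of 8 fibroblast, 5 of 6 endothelial and 6 of 7 macrophage markers, all higher. None of these markers was at 0 in all libraries. Fibroblast markers summed to 1626 to 2031 CPM in WT and to 1990.1 to 3536 CPM in KO, endothelial markers to 81.9 to 104 and 137 to 198 CPM, and macrophage markers to 84.3 to 105 and 101 to 174 CPM. In KO-738 the fibroblast sum of 1990.1 CPM and the macrophage sum of 101 CPM lay inside the WT ranges, and the endothelial sum of 137 CPM lay above it. Its fat cell markers summed to 57.6 CPM, against at most 29.0 CPM in WT. Of 9 germ cell and sperm markers 4 passed, all higher in KO, with sums of 35.2 to 82.3 CPM in WT and 39.1 to 191 CPM in KO. The part of these cells in the values of Dnajb9 and the other members was not tested. In a whole organ, fewer cells of a type and less RNA per cell cannot be told apart.

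**Figure D3:**
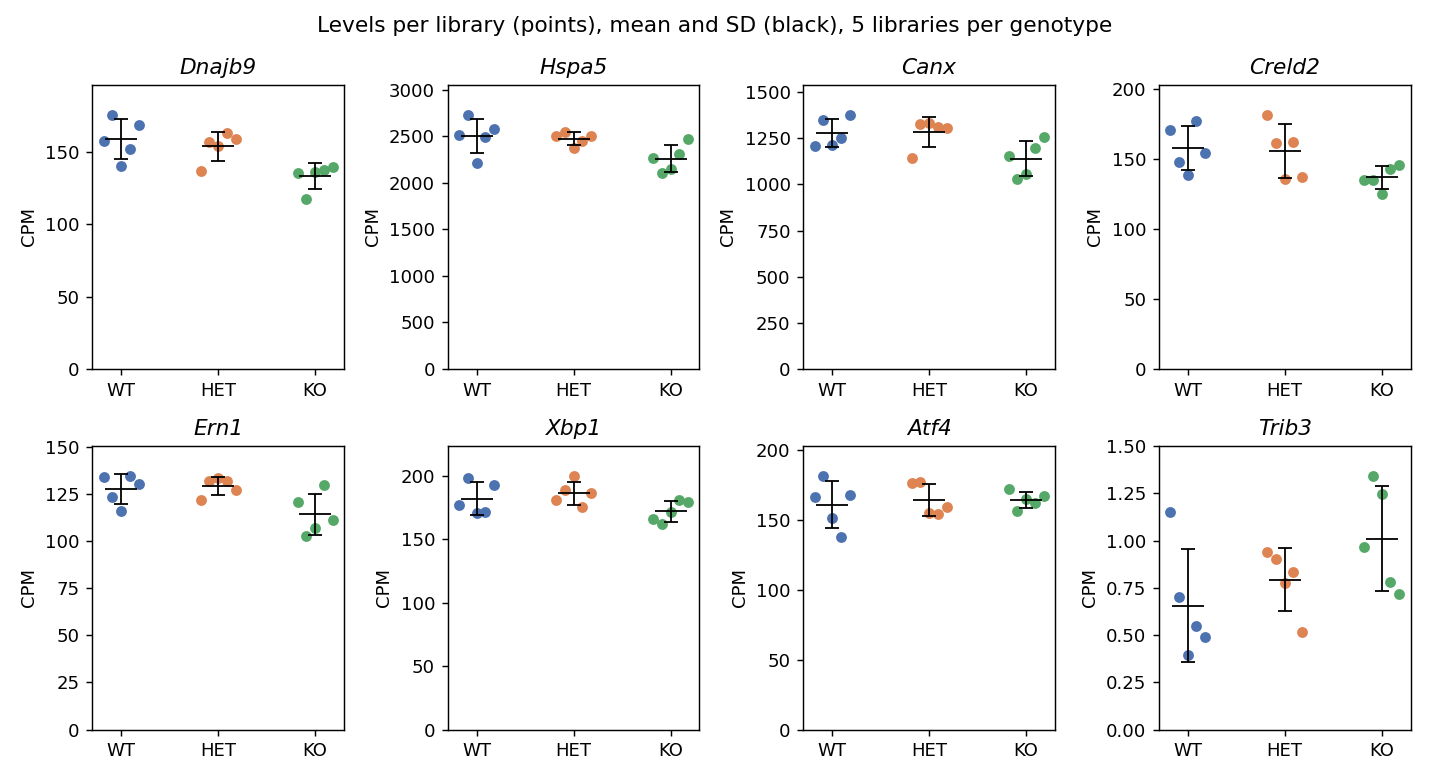
Level in CPM of 8 members in each library, with the mean and SD of each genotype in black. The 5 KO points of Dnajb9 lie below its WT points; in the other 7 panels the genotypes overlap.

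Among the 7 lumenal chaperones, 0 passed in KO against WT, 0 in HET against WT and 0 in KO against HET, and all 7 had values below 0 in KO against WT (-0.18 to -0.036, median -0.13). Hspa5 (chromosome 2, 34772090 to 34776529), the BiP chaperone that also holds the sensors inactive, stood at 2519, 2726, 2216, 2497 and 2575 CPM in WT, at 2499, 2549.5, 2371, 2445 and 2506 CPM in HET and at 2269, 2103, 2152, 2315 and 2467 CPM in KO. KO-695 and KO-696 lay below all WT libraries, and the others fell inside the WT range. Its log2 fold change in KO against WT was -0.15 ± 0.064 (unadjusted p = 0.0341, edgeR adjusted p = 0.171). Hsp90b1, which folds receptors and integrins, stood at 2708, 3079, 2439.7, 2803 and 2767 CPM in WT, at 2737, 2893, 2565, 2859 and 2828 CPM in HET and at 2487, 2512, 2291, 2501 and 2841 CPM in KO, and gave -0.13 ± 0.072. KO-696 alone was below the WT range.

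Canx, which retains glycoproteins at the ER membrane, stood at 1208, 1350.0, 1216, 1252 and 1375 CPM in WT, at 1142, 1328, 1332, 1312 and 1309 CPM in HET and at 1154, 1031, 1056, 1197 and 1259.9 CPM in KO. KO-694, KO-695, KO-696 and KO-738 were below the lowest WT library, HET-692 too, and KO-739 was inside the WT range. The value was -0.17 ± 0.068 in KO against WT and -0.17 ± 0.068 in KO against HET (edgeR adjusted p = 0.147 and 0.161). Hyou1, an HSP70 relative that releases nucleotide from Hspa5, stood at 474, 484, 425, 486 and 475 CPM in WT, at 516, 484, 441, 493 and 461 CPM in HET and at 439, 439.6, 419.8, 458 and 399 CPM in KO. WT-720 was far below the other WT libraries and inside the KO range. Its values were -0.12 ± 0.055 in KO against WT and -0.15 ± 0.055 in KO against HET. Calr ran from 2346 to 2721 CPM in WT, 2431 to 2773 in HET and 2034 to 2522 in KO. Sdf2l1, a partner of Hspa5 and its DnaJ proteins, ran from 88.0 to 116, 76.9 to 111 and 72.1 to 99.9 CPM, and Manf, a secreted ER stress factor, from 289 to 364, 313 to 393 and 276 to 413 CPM; the genotypes overlapped for all of these.

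Of the 3 DnaJ co-chaperones, Dnajb9 was the only one called. Dnajb11 (ERdj3), which delivers unfolded proteins to Hspa5, stood at 177, 182, 147, 166 and 177 CPM in WT, at 176, 180.5, 168, 173 and 172 CPM in HET and at 148, 148, 145, 167 and 169 CPM in KO. Its HET libraries lay within 168 to 180.5 CPM, and every KO library but KO-739 lay below all of them. The values were -0.13 ± 0.060 in KO against WT and -0.16 ± 0.060 in KO against HET (edgeR adjusted p = 0.214 and 0.14). Dnajc3 (p58IPK), a co-chaperone of Hspa5 in the lumen, ran from 401 to 530.2 CPM in WT and 412 to 461 CPM in KO, at -0.056 ± 0.066.

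The 6 disulphide enzymes had 0 called in each comparison and a median of -0.064 in KO against WT. Creld2, a stress-induced thiol-disulphide isomerase, had the largest value of the group at -0.21 ± 0.083 (unadjusted p = 0.0244, edgeR adjusted p = 0.143). It stood at 171, 148, 139, 177 and 155 CPM in WT, at 181, 162, 136, 162 and 137 CPM in HET and at 135, 135, 125, 143 and 146 CPM in KO. The KO libraries fell between 125 and 146 CPM, and WT-720 at 139 CPM was inside that range, as were HET-715 and HET-735. Pdia3, which acts on glycoproteins together with Calr and Canx, stood at 1261, 1432, 1166, 1281 and 1325 CPM in WT, at 1237, 1336, 1281, 1292 and 1301 CPM in HET and at 1162, 1214, 1122, 1248 and 1339 CPM in KO, and gave -0.087 ± 0.062. P4hb, the classical protein disulphide isomerase, was at 1107 to 1207 CPM in WT and 1126 to 1279 CPM in KO (0.047 ± 0.052), with a 95% interval of -0.064 to 0.16. Pdia4, Pdia6 and the oxidase Ero1l, which supplies the isomerases with oxidizing equivalents, gave -0.051 ± 0.073, 0.0048 ± 0.064 and -0.077 ± 0.064.

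None of the 3 sensors passed in any comparison. Ern1, the kinase and endoribonuclease that splices Xbp1, stood at 134, 123, 116, 134 and 130.2 CPM in WT, at 122, 132, 133, 132 and 127 CPM in HET and at 121, 102, 107, 129 and 111 CPM in KO. KO-695, KO-696 and KO-739 lay below all WT and HET libraries, and KO-694 below the HET libraries. Its values were -0.16 ± 0.062 in KO against WT and -0.18 ± 0.062 in KO against HET (edgeR adjusted p = 0.122 and 0.116). Without KO-738, Ern1 was called lower in KO against WT (-0.21, edgeR adjusted p = 0.0205) and in KO against HET (-0.22, 0.0196). That fit called 14.96% and 12.5% of all tested genes in these comparisons. With the number term Ern1 was at -0.11 in KO against WT (adjusted p = 0.428), and among the animals numbered 700 and above at -0.084 (0.612). Eif2ak3, the kinase that phosphorylates eIF2 alpha, stood at 64.4, 65.3, 59.9, 60.8 and 64.1 CPM in WT, at 62.5, 64.4, 59.8, 63.5 and 64.9 CPM in HET and at 61.9, 57.2, 61.5, 63.9 and 55.6 CPM in KO, and gave -0.068 ± 0.046. The genotypes overlapped throughout. Atf6 gave -0.030 ± 0.045, with 122 to 143 CPM in WT and 124 to 134 CPM in KO.

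The 3 transcription factors and the 4 stress targets of Atf4 and Ddit3 also had 0 called in each comparison. Xbp1, counted over both splice forms, stood at 178, 198, 171, 172 and 193 CPM in WT, at 181, 189, 200.0, 176 and 187 CPM in HET and at 166, 162, 172, 181 and 179.6 CPM in KO. KO-694 and KO-695 were below all WT libraries, and the value was -0.083 ± 0.053. Atf4 stood at 166, 181, 151, 138 and 168 CPM in WT, at 176, 177, 155, 154 and 159 CPM in HET and at 172, 156, 165, 162 and 167 CPM in KO. Its KO libraries lay wholly inside the WT range, with a value of 0.032 ± 0.067. Ddit3, a pro-apoptotic factor raised by lasting stress, stood at 21.0, 16.3, 18.3, 16.1 and 18.3 CPM in WT, at 20.4, 17.7, 17.2, 20.5 and 19.0 CPM in HET and at 18.1, 16.9, 17.5, 18.1 and 16.2 CPM in KO, and the 3 genotypes overlapped (-0.053 ± 0.076).

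Of the targets, Trib3, a pseudokinase that inhibits Atf4 and Ddit3, had the largest value of all 36 at 0.63 ± 0.28 (unadjusted p = 0.0361, edgeR adjusted p = 0.177; 95% interval 0.046 to 1.22). It stood at 1.15, 0.702, 0.393, 0.548 and 0.489 CPM in WT, at 0.941, 0.904, 0.775, 0.837 and 0.516 CPM in HET and at 0.968, 1.34, 1.25, 0.783 and 0.716 CPM in KO. WT-709 lay among the higher KO libraries, and the other 4 WT libraries lay below every KO library. Ppp1r15a (GADD34), which directs the phosphatase that reverses eIF2 alpha phosphorylation, stood at 25.3, 26.8, 23.4, 23.8 and 21.0 CPM in WT, at 22.8, 22.4, 22.0, 22.1 and 22.7 CPM in HET and at 20.6, 23.9, 21.7, 23.0 and 19.6 CPM in KO. Its values were -0.15 ± 0.067 in KO against WT and -0.10 ± 0.067 in HET against WT, opposite in direction to Trib3. The asparagine synthetase Asns and the glutathione-degrading enzyme Chac1 gave 0.033 ± 0.061 and -0.0088 ± 0.13, with 37.0 to 41.9 CPM and 4.65 to 6.22 CPM in WT and 37.0 to 46.6 CPM and 4.07 to 6.83 CPM in KO. Leaving out WT-709 took Trib3 to 0.94 (adjusted p = 0.0617), and leaving out WT-720 to 0.48 (0.343). With the number term Trib3 was at 0.29 (0.661), and among the animals numbered 700 and above at 0.20 (0.834).

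Genes of ER-associated degradation had 0 of 8 called in each comparison, with a median of -0.081 in KO against WT. Herpud1, which recruits the degradation machinery and turns over quickly, stood at 169, 156, 148, 147 and 149 CPM in WT, at 156, 141, 142, 160.1 and 149 CPM in HET and at 139, 140.0, 144, 150.5 and 135 CPM in KO. KO-694, KO-695, KO-696 and KO-739 were below all WT libraries, and KO-738 was inside their range. It gave -0.12 ± 0.050 (unadjusted p = 0.0325, edgeR adjusted p = 0.166). Derl2, a membrane protein of the export channel, stood at 17.3, 24.4, 17.3, 17.7 and 21.1 CPM in WT, at 20.8, 25.8, 18.3, 19.0 and 22.7 CPM in HET and at 19.7, 14.6, 21.6, 17.3 and 17.7 CPM in KO. The values scattered within each genotype and gave -0.10 ± 0.12. Syvn1 (HRD1), the ubiquitin ligase of the channel, ran from 108 to 156 CPM in WT and 75.6 to 129 CPM in KO, at -0.21 ± 0.13, and Derl3 from 86.3 to 93.3 CPM and 61.4 to 101 CPM, at -0.031 ± 0.14.

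Syvn1 and Derl3 were both lowest in KO-739, at 75.6 and 61.4 CPM. In that library 6 skeletal muscle markers summed to 3952 CPM, against 22.7 to 84.7 CPM in the other 14; its part in these values was not tested. Without KO-739, Syvn1 gave -0.097 and Derl3 0.075, with a change of direction for Derl3. Sel1l, the partner of Syvn1, gave -0.076 ± 0.051, the mannosidase-like genes Edem1 and Edem2 gave -0.086 ± 0.059 and 0.0025 ± 0.047, and Derl1 gave -0.0068 ± 0.039. Derl1 had the smallest standard error of the 36 in this comparison, with 134 to 145 CPM in WT, 133 to 144 in HET and 135 to 145 in KO.

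The translocon was represented by Sec61b, a subunit of the channel, and Ssr1, a subunit of the translocon-associated complex, and 0 of 2 passed in each comparison. Sec61b, which lies on chromosome 4 as Plag1 does (chromosome 4, 47474661 to 47483233), stood at 81.4, 61.6, 69.4, 72.5 and 55.4 CPM in WT, at 65.8, 63.3, 60.4, 60.7 and 54.3 CPM in HET and at 58.4, 68.2, 56.7, 62.1 and 56.5 CPM in KO. WT-709, WT-720 and WT-723 were above all HET and KO libraries and WT-726 among the lowest of the 15. Its values were -0.17 ± 0.088 in KO against WT and -0.16 ± 0.088 in HET against WT. Ssr1 stood at 392, 442, 366, 388 and 409 CPM in WT, at 387, 407, 382, 386 and 394 CPM in HET and at 383, 367, 377, 397 and 404 CPM in KO. All KO libraries were inside the WT range, at -0.051 ± 0.050.

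Heterozygotes showed no called difference from WT among these genes. In HET against WT, 0 of 36 genes passed, as did 0% of all tested genes. At an unadjusted p under 0.05 there were 0 by edgeR, against 4.40% of all tested genes. DESeq2 also called 0 of 36 (0.00516% of all tested genes) and had 0 at an unadjusted p under 0.05 (4.34%). Limma voom with quality weights called 0 (0%) and had 1 at that unadjusted p (12.9%). Values below 0 numbered 16 of 36 (47.2% of all tested genes), and the median was 0.0068. The 95% interval lay within 0.25 of 0 for 28 genes and within 0.5 for 35, the exception again being Trib3 (0.29 ± 0.29). The smallest p-values belonged to Sec61b (-0.16 ± 0.088, unadjusted p = 0.0877, edgeR adjusted p = 0.981) and Ppp1r15a (-0.10 ± 0.067, 0.148 and 0.981). Dnajb9 gave -0.044 ± 0.066.

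In KO against HET, 0 of 36 passed by edgeR, against 1.96% of all tested genes. DESeq2 also called 0 (6.34% of all tested genes). Limma voom called 3, Canx, Dnajb9 and Dnajb11, all lower in KO, against 9.84% of all tested genes. At an unadjusted p under 0.05 there were 8 by edgeR (22.2%, against 20.8% of all tested genes), 9 by DESeq2 (19.9% of all tested genes) and 10 by limma voom (26.7%). Lower values at that p made up 22.2% of the 36 and 9.23% of all tested genes. The 8 were Calr, Canx, Hyou1, Dnajb9, Dnajb11, Creld2, Ern1 and Xbp1. Values below 0 numbered 32 of 36 (52.5% of all tested genes), with a median of -0.074 against -0.010. The KO libraries are the same in both comparisons, so values of a gene in KO against WT and in KO against HET are not independent. Dnajb9 gave the smallest p, with -0.21 ± 0.066.

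The genes with an ER stress element were read beside those without. The 9 had a median of -0.13 in KO against WT (-0.21 to 0.0048, 8 below 0), and the 23 with a window but no element had -0.077 (-0.25 to 0.63, 18 below 0). In HET against WT the medians were 0.0047 and 0.0024, and in KO against HET -0.13 and -0.044. The ranges overlapped in each comparison, and Dnajb9, the member called, was in the second set. In WT the 9 stood at 26.9 to 888 CPM per kb with a median of 273, and the 23 at 0.309 to 412 with a median of 20.2.

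Within genotypes, several chaperones were high or low together from animal to animal. Deviations of log2(CPM + 0.5) from the genotype mean were compared between all 630 pairs of the 36 genes over the 15 libraries, with Pearson's r as a description. The median r was 0.17, 20 pairs exceeded 0.8 and 21 were below -0.5. Hspa5 was most like Ssr1 (0.92), Dnajb11 (0.91), Hsp90b1 (0.87), Edem1 (0.86) and Pdia3 (0.83). Dnajc3 and Atf6 gave 0.92, Hsp90b1 and Pdia3 0.90, and Calr and Pdia6 0.90. Canx and Syvn1 gave -0.76, and Syvn1 and Derl3 0.87, a pair lowest in KO-739 as described. The points share libraries, depth and scaling. No r was computed for genes outside the 36, so these values have no background beside them.

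**Figure D4:**
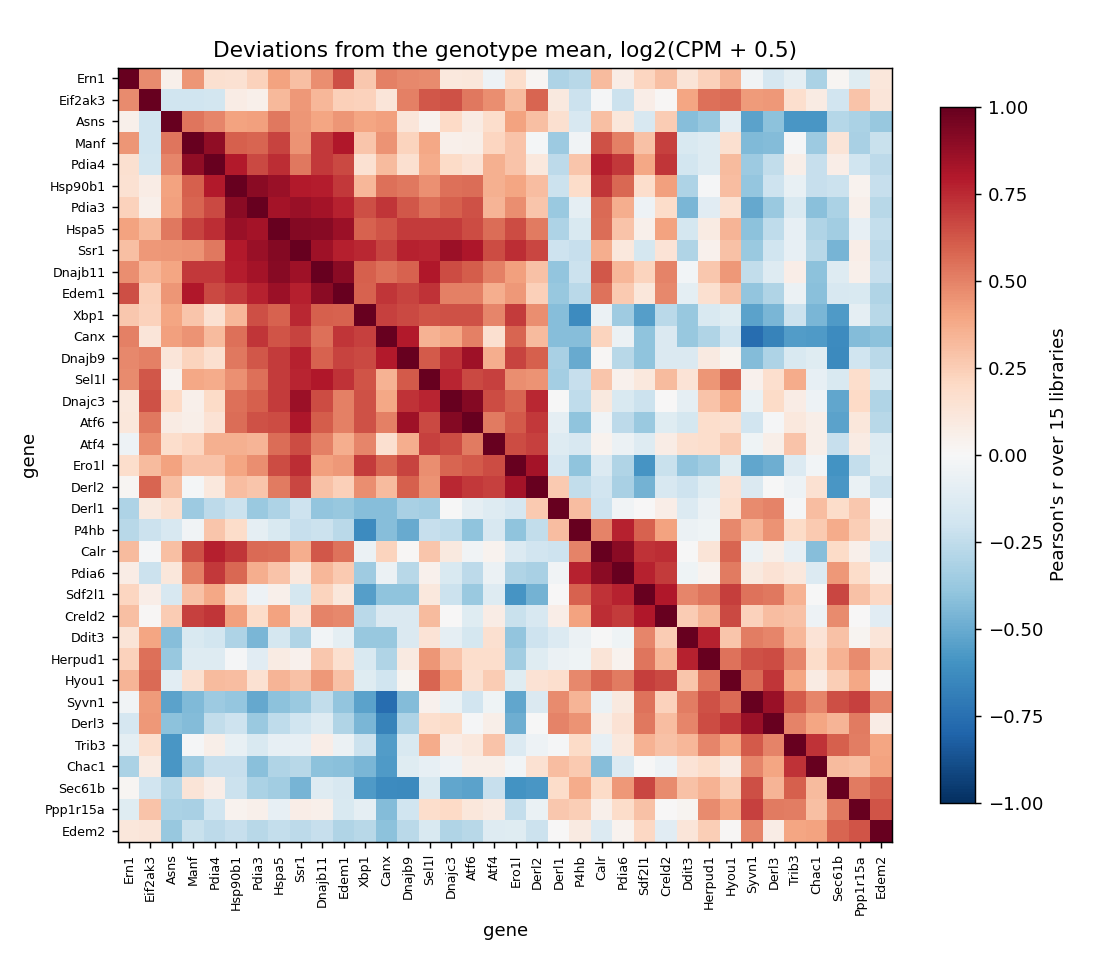
Pearson's r between members over 15 libraries, computed on deviations of log2(CPM + 0.5) from the genotype mean; rows and columns are the 36 genes in clustered order and the colour is r. A red block holds Hspa5 with Hsp90b1, Pdia3, Dnajb11, Edem1 and Ssr1, and a smaller one Calr with Pdia6, Sdf2l1 and Creld2.

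The other genes of the pathway were read from 6 lists with 111 genes, of which 110 were tested. In KO against WT 1 of 110 passed (0.909%, against 6.0% of all tested genes), in HET against WT 0 and in KO against HET 0 (0% and 1.96% of all tested genes). At an unadjusted p under 0.05 there were 14 (12.7%, against 23.6% of all tested genes), 4 (3.64% against 4.40%) and 19 (17.3% against 20.8%). DESeq2 called 3, 0 and 2 of them, beside 9.76%, 0.00516% and 6.34% of all tested genes. Limma voom called 5, 0 and 10, beside 8.43%, 0% and 9.84%. The medians were -0.023, 0.021 and -0.043. The gene called was Phgdh, the entry enzyme of serine synthesis and a target of Atf4, which fell by 0.31 ± 0.079 (edgeR adjusted p = 0.0335). It stood at 209, 199, 237, 245 and 192 CPM in WT, at 209.6, 197, 202, 215 and 207 CPM in HET and at 195, 183, 167, 185 and 145 CPM in KO. KO-694 was inside the WT range, just above WT-726, and the other KO libraries lay below all WT libraries. Phgdh, too, was not called when only KO and WT entered the fit (-0.30, adjusted p = 0.108), with the number term (-0.34, 0.097), among animals numbered 700 and above (-0.39, 0.168), or without 1 of 10 libraries (WT-709, WT-719, WT-720, WT-723, HET-715, HET-718, HET-735, KO-695, KO-696 or KO-739; adjusted p 0.0508 to 0.0845).

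By list, KO against WT called 0 of 20 other folding and disulphide genes (median -0.031; smallest p Txndc11 at -0.13 ± 0.046 and the oxidase Ero1lb at -0.13 ± 0.059) and 0 of 22 other translocon, signal peptidase and glycosylation genes (median -0.028; Ddost at 0.094 ± 0.049 and Spcs3 at -0.095 ± 0.054). It called 0 of 15 other degradation genes (median 0.020; Aup1 at -0.15 ± 0.070 and Selenos at -0.11 ± 0.056) and 0 of 18 genes of transport out of the ER (median -0.026; the cargo receptor Tmed2 at -0.16 ± 0.058 and the retrieval receptor Kdelr3 at 0.22 ± 0.080). Of 10 tested genes of other stress sensing and signalling, 0 passed (median -0.025); the ER-bound factors Creb3l4 and Creb3l1 gave 1.10 ± 0.33 (edgeR adjusted p = 0.0624) and 0.42 ± 0.17. Ern2 had too few counts for a test. Among 25 integrated stress response genes 1 passed (median 0.018), Phgdh, and the serine hydroxymethyltransferase Shmt2 gave -0.34 ± 0.10 (adjusted p = 0.0636). Creb3l4 stood at 1.23, 1.20, 1.25, 1.24 and 1.18 CPM in WT and at 2.71, 2.71, 5.08, 1.35 and 1.19 CPM in KO, so that KO-738 and KO-739 were close to the WT level.

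**Figure D5:**
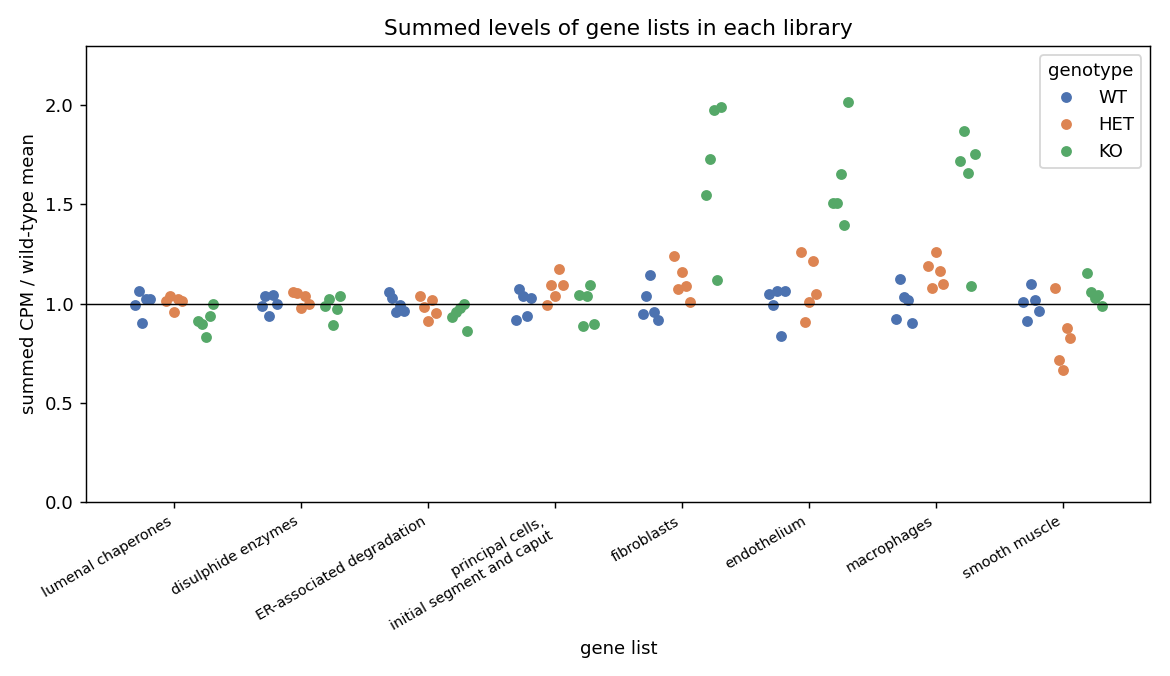
Summed CPM of 3 groups of members and 5 lists of cell markers in each library, divided by the WT mean of the same list; points are libraries, coloured by genotype. Fibroblast, endothelial and macrophage markers are high in KO, except in KO-738 for fibroblasts and macrophages, while the member groups overlap between genotypes.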

How the data were processed

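Whole-epididymis RNA of 15 mice, 5 per genotype, was sequenced from stranded mRNA libraries, per the labels' protocols; tissue had been rinsed in saline against sperm. The deposited values are raw read counts per NCBI Gene ID. The submitters' processing notes name build GRCm38.p6 and the tools HISAT2 (2.0.5), Subread (1.4.6p5) with its featureCounts, and FastQC; the strand setting and annotation release are not given in the sources used here. By RefSeq coordinates 14 of the 36 genes overlap another gene, among them Hspa5, Pdia3, Pdia6, Ddit3, Ppp1r15a, Syvn1 and Derl2, whose counts are uncertain to that extent.

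The members and lists were chosen with earlier results of these data known. IDs were named through a RefSeq table of GRCm38.p6 (40290 of 41591, 96.9%), and Ero1l was matched as a synonym. Counts were tested with edgeR 4.0.16 in R 4.3.3 (TMM, filterByExpr, robust quasi-likelihood test) in 1 fit of 15 libraries; two-sided p-values were adjusted by Benjamini-Hochberg over 19388 genes, at a threshold of 0.05. The labels name separate animals but no litter or batch. At total counts of 20.3 to 42 M, counting error weighs most on Trib3 (11 to 54 counts per library) and Chac1 (114 to 296). Exon lengths came from GENCODE of the same build. Alternatives were other scaling factors and filters, DESeq2 1.42.0, limma 3.58.1 voom, fits of 2 genotypes, the animal number range, and leaving out libraries. Members past the threshold, the pair with the smallest p in each role, and Hspa5, Hsp90b1, Xbp1, Atf4 and Ddit3 are given library by library. Of each wider list the genes past the threshold, or otherwise the pair with the smallest p in KO against WT, are named. Marker lists not described above (corpus and cauda, clear, basal, plasma and B, smooth muscle, fat, germ, ciliated and seminal vesicle cells) are summed in the closing section. Plots used Python 3.11.15 and matplotlib 3.10.9.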

Additional observations from a re-analysis of the deposited data

Results flagged for a closer look

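In 6 of 108 sets of 5 libraries (a gene in a genotype) 1 library stood apart by Dixon's test, where chance alone gives about 1 in 20. Dnajb9 was at 118 CPM in KO-695 and at 136 to 139.7 CPM in the other KO libraries; without KO-695 its value in KO against WT was -0.20 (edgeR adjusted p = 0.0592). Calr was at 2034 CPM in KO-696 and at 2381 to 2522 CPM in the other KO libraries. Canx was at 1142 CPM in HET-692, against 1309 to 1332 CPM in the other HET libraries, and Dnajc3 at 425 CPM in HET-715, against 455 to 465 CPM. In WT-720, Hyou1 was at 425 CPM (474 to 486 CPM in the other WT libraries) and Pdia4 at 607 CPM (698 to 716 CPM). WT-720 was also the WT library with the lowest sum over the 36 genes.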

How the results depend on the processing

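No paired analysis was possible because the genotypes share no animal number. In KO against WT the count of members called was 1; it was 0 with KO and WT alone, with the number term and among animals numbered 700 and above, 2 (Dnajb9 and Ern1) without HET-693 and KO-738, and 0 to 2 without 1 library. In KO against HET it was 0, 3 by limma voom, 1 (Ern1) without HET-693 and KO-738, and 0 to 1 without 1 library. In HET against WT it was 0 in every fit run. For the wider lists the count in KO against WT was 1; it was 3 by DESeq2, 5 by limma voom, 0 with the 2 genotypes alone, the number term or the numbers from 700, 7 without HET-693 and KO-738 and 0 to 9 without 1 library, the 9 being without KO-738. In KO against HET it was 0, 2 by DESeq2, 10 by limma voom, 3 without HET-693 and KO-738, and 0 to 9 without 1 library. Fits with fewer libraries applied their own filter on low counts. Over all genes, KO against WT called 1163. It called 1893 by DESeq2 over the same 19388 genes, 287 with 2 genotypes, 177 with the number term and 0 for numbers from 700. Without HET-693 and KO-738 it called 2722 (13.98%), and without 1 library 318 to 2923. KO against HET called 380, and 1229 by DESeq2 over the same genes and 1907 by limma voom. It called 0 with 2 genotypes, 362 with the number term and 0 for numbers from 700. Without HET-693 and KO-738 it called 1660 (8.52%), and without 1 library 0 to 2443. The causes were not tested. Directions that changed in KO against WT, none of them called, were: with the number term Manf 0.00043, Pdia6 -0.011, Atf4 -0.021 and Edem2 -0.0077; for numbers from 700 Manf 0.15, Pdia3 0.0058, Pdia4 0.041, Edem1 0.039, Ssr1 0.0085, Edem2 -0.033 and Selenos 0.024, and in KO against HET Dnajb11 0.00040; by limma voom Pdia6 -0.011, Chac1 0.041, Asns -0.00017 and Derl2 0.0084; by DESeq2 Edem2 -0.00033; with upper quartile factors Chac1 0.020 and Derl1 0.021; without HET-693 and KO-738 Chac1 0.082. Derl1 was 0.0026 without the 20 most abundant genes, 0.0017 with no filter and 0.0022 with 2 genotypes. Leaving out 1 library moved Asns over -0.017 to 0.072, Atf4 over -0.023 to 0.081, Atf6 over -0.059 to 0.0046, Chac1 over -0.11 to 0.082, Ddit3 over -0.097 to 0.0055, Derl1 over -0.027 to 0.0043, Derl3 over -0.091 to 0.075, Dnajc3 over -0.10 to 0.0084, Edem2 over -0.033 to 0.028, Manf over -0.13 to 0.020 and Pdia6 over -0.023 to 0.049. Depth limits Trib3 and Chac1 most, the members with the fewest counts.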

Other observations

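Other marker lists are given as summed levels over the 5 WT, HET and KO libraries in turn; their part in the values of the members was not tested. In KO against WT, 2 of 8 markers of principal cells of corpus and cauda were called higher and 1 lower, and 2 of 5 tested markers of plasma and B cells, 4 of 9 of germ cells and sperm and 1 of 5 of ciliated cells were called higher. Of clear, basal, smooth muscle, fat and seminal vesicle cells 0 were called. Of all tested genes 4.40% were called higher and 1.60% lower. Principal cells of corpus and cauda held 2573 to 3148, 2664 to 3434 and 2031 to 4201 CPM. Clear cells, which acidify the duct, held 301 to 321, 299 to 330.4 and 258 to 319 CPM, and basal cells 303 to 351, 298 to 363 and 336 to 399.9 CPM. Plasma and B cells, the former a cell type with a large ER, held 10.4 to 12.2, 9.35 to 14.1 and 5.45 to 12.9 CPM. Their mean sum was 11.5 CPM in WT and 8.95 CPM in KO, and the log2 fold changes of the 5 tested markers ran from -0.74 to 1.79. Smooth muscle held 1834 to 2217, 1341 to 2171 and 1990.2 to 2322 CPM. Fat cells reached 162 CPM in KO-695 and 57.6 CPM in KO-738, and at most 39.7 CPM elsewhere. Germ cells and sperm held 35.2 to 82.3, 56.1 to 99.4 and 39.1 to 191 CPM, with KO-694, KO-695 and KO-696 at 112, 127 and 191 CPM, above all WT and HET libraries. Ciliated cells of the efferent ducts held 19.4 to 27.7, 19.5 to 25.3 and 17.3 to 41.3 CPM, and seminal vesicle markers 1.31 to 10.1, 1.62 to 9.01 and 3.85 to 13.8 CPM.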
